A study of Rattus norvegicus with 6 samples.

Results

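The 62 piRNA probes described here gave a signal well above background with every one of the 3 Goto-Kakizaki (GK) islet RNAs and with none of the 3 Wistar islet RNAs. They were chosen by exactly these calls, as the scanner software made them, from 39727 piRNA probes, of which they make up 0.156%. The reverse pattern, on every Wistar array and no GK array, was met by 44 probes (0.111%). A further 7721 piRNA probes passed this call on each of the 6 arrays.

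The GK group was 3 samples of total RNA from pancreatic islets of Goto-Kakizaki rats, and the Wistar group was 3 such samples from Wistar rats. All rats were 3 months old, and the labels name no treatment, diet or sex. GK rats are a lean strain bred from Wistar stock that develops type 2 diabetes, so the comparison sets a diabetic strain against its strain of origin, with all other strain differences included. Each array held 1 sample, whose RNA carried a Cy3 dye joined to its 3′ ends, and each piRNA probe was printed as 1 spot, so a call rests on 1 spot per array. Islet RNA was extracted for each sample on its own, per the labels, and islets hold several endocrine cell types besides beta cells. None of the 23 marker genes and 9 marker miRNAs looked for, of islet and other pancreatic cell types, was among the 159 other probes, so the tissue label was not checked here. Fewer cells of a type and less RNA per cell cannot be told apart in such samples.

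PIWI-interacting RNAs are small RNAs that load onto proteins of the PIWI branch of the Argonaute family. They are best known from the germline, where they guide the silencing of transposons, and many arise from long single-stranded precursors of genomic clusters. In pancreatic islets far less is known of them than of microRNAs. The deposited files name each probe by a GenBank accession alone. No function is therefore given below to any single member, and their sequences and genome positions were not analysed here.

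GK 1 shared slide 1 with the 3 Wistar arrays, at position 4 against positions 1, 2 and 3, while GK 2 and GK 3 were at positions 3 and 4 of slide 2. The number of piRNA probes called well above background was 11721, 14373 and 10553 on the GK arrays, against 9699, 11210 and 12101 on the Wistar arrays. The median processed signal over all piRNA probes was 3.10, 7.87 and 2.42 on the GK arrays and 3.41, 2.60 and 2.86 on the Wistar arrays, in scanner units after background subtraction. GK 2 had the highest of these medians, which take in the probes not detected on any array. The lowest signal called well above background was 9.20, 10.6 and 8.07 on the GK arrays and 13.4, 9.25 and 8.07 on the Wistar arrays. This limit is not sharp, since signals up to 17.9 were not called on Wistar 1.

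The members were dim. Over the 3 GK arrays their 186 processed signals had a median of 17.3 and a lowest value of 8.75, and 185 of them were under 100. By array, the median member signal was 16.2, 21.1 and 12.2 on GK 1, 2 and 3, against 7.27, 5.95 and 4.78 on Wistar 1, 2 and 3. The always detected piRNAs had medians of 63.2, 53.8 and 46.8 on the GK arrays and 69.6, 58.9 and 62.1 on the Wistar arrays. Ranked among those 7721 piRNAs by mean GK level, the median member stood at the 5.53rd percentile, and the brightest at the 41.0th. Most members were thus dim beside the piRNAs detected on all 6 arrays. Since the rule asks for no Wistar call, a low rank among these follows in part from the choice.

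The word "only" covers the stricter of the scanner's calls. A weaker call, that a signal is positive and significantly above background, was met on all 3 Wistar arrays by 45 of the 62 members. On 2 Wistar arrays it was met by 12, on 1 by 3 (DQ623728, DQ612238 and DQ737219) and on none by 2 (DQ766349 and DQ760570). By this weaker call, then, most members had a measurable Wistar signal. The Wistar-only piRNAs were alike in this, with 32 of 44 positive and significant on all 3 GK arrays. For 53 of the 62 members every GK signal was above every Wistar signal, as it was for 2.41% of all piRNA probes. That pattern overlaps with the rule, so nothing is read from it. For the other 9, at least 1 Wistar signal was as bright as a GK signal. The lowest called signal differed between arrays and was highest on Wistar 1, at 13.4. DQ625746, for example, read 15.7 on Wistar 1, where it was not called, and 12.6 on GK 3, where it was.

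Because the members have no called Wistar signal, a fold can be given only as a bound. Signals were put on a scaled log2 level, the log2 signal minus each array's 75th percentile over the probes detected on all arrays. The GK mean was then set against the mean of, per Wistar array, the higher of the probe's own signal and the lowest called signal. On this basis, and under this scaling alone, 43 of the 62 members had a bound of at least 2-fold. The bounds ran from 1.61-fold to 5.27-fold with a median of 2.21-fold. These bounds rest on group means under 1 scaling, make no allowance for the spread between arrays, and use a limit that is not sharp. The scaling moves the bounds together with the log2 differences. The median log2 difference of the members was 2.02 here, 1.63 with no scaling and 1.54 with the percentile over all probes. Under either of these 2 settings fewer than 43 members would reach a bound of 2-fold, and how many was not counted. DQ738673, for example, had a bound of 2.29-fold but a log2 difference of 0.82, under 2-fold, with no scaling. The measured differences, which take Wistar signals below the limit at face value, ran from 0.76 to 4.36 on the log2 scale with a median of 2.02. Over the 11315 piRNA probes tested the median difference was 0.17. With no scaling the 2 medians were 1.63 and -0.22, and with normexp background correction and quantile normalization they were 0.24 and -0.031. That correction adds an offset of 50 to each signal, more than all but a few member signals, which by construction draws the log2 differences of dim probes towards 0. Under it 60 of the 62 members were above 0, DQ624218 and DQ767408 being at -0.052 and -0.016. The rule used this contrast, so all of these are descriptions.

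Of the 10 largest bounds, 9 came from probes in 1 small area of the array, and so their places are given with their values. The array has 85 columns and 532 rows of spots. Of the 62 members, 18 lay in columns 80 to 85 and rows 222 to 259, at the edge of the last column, and this rectangle holds 204 piRNA probes, or 0.514% of them all. The rectangle was drawn around those 18 after the values had been seen, and so its counts have no test.

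DQ605573, in row 242 and column 85, had the largest bound. Its processed signals were 62.2, 42.1 and 25.2 on GK 1, 2 and 3, against 2.61, 1.93 and 3.33 on Wistar 1, 2 and 3. The lowest GK signal was well above the highest Wistar signal. The bound of DQ605573 was 5.27-fold, at a scaled log2 level of -2.01 ± 0.43 in GK islets (SD, n = 3) and -6.37 ± 0.39 in Wistar islets (SD, n = 3). Its signals on Wistar 1 and 2 lay close to the lowest piRNA signals of these arrays, 2.60 and 1.82. The Wistar SD is therefore a poor measure of spread between islet samples. The spots around it were raised on the GK arrays as well, as given below.

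DQ611669, in row 225 and column 85, had signals of 22.9, 58.7 and 42.5 on the GK arrays, against 3.75, 5.36 and 5.97 on the Wistar arrays. Its bound was 5.03-fold. Here GK 1 was the lowest of the GK arrays, whereas it was the highest for DQ605573. DQ739134, in row 234 and column 85, had 54.5, 39.3 and 23.0 on the GK arrays, against 5.81, 4.60 and 4.11 on the Wistar arrays, a bound of 4.78-fold. DQ603001, in row 227 and column 85, had 37.8, 40.5 and 31.5 on the GK arrays, against 5.06, 2.25 and 4.67 on the Wistar arrays, a bound of 4.75-fold. Among these 3 its GK signals were the closest to each other.

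DQ750276, in row 240 and column 85, had signals of 56.0, 37.3 and 17.2 on the GK arrays, against 2.83, 5.70 and 4.51 on the Wistar arrays. DQ736153, in row 254 and column 80, had 71.4, 35.0 and 10.5 on the GK arrays, against 2.69, 2.63 and 6.47 on the Wistar arrays. In both, GK 1 was the highest and GK 3 the lowest of the GK arrays, and their bounds were 4.31-fold and 3.88-fold. DQ750951, in row 243 and column 84, had 37.2, 21.7 and 20.2 on the GK arrays, against 2.64, 4.26 and 5.07 on the Wistar arrays, a bound of 3.31-fold.

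DQ766618, in row 222 and column 84, had a signal of 743 on GK 1 that the scanner marked as an outlier, and 19.9 and 25.8 on GK 2 and GK 3, against 6.49, 7.64 and 4.55 on the Wistar arrays. With the outlier left out, its bound of 3.28-fold rests on GK 2 and GK 3 alone. DQ766349, in row 259 and column 84, had 45.3, 21.0 and 16.2 on the GK arrays, against 2.63, 1.86 and 1.60 on the Wistar arrays, a bound of 3.25-fold. Its Wistar signals failed even the weaker call on every array. Apart from these 9 and DQ618392, the edge area held 8 more members, DQ763779, DQ623728, DQ756624, DQ612238, DQ733108, DQ760570, DQ737219 and DQ606984. Their bounds ran from 1.64-fold to 2.80-fold.

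The spots around the 18 edge members moved with them. Over the 186 piRNA probes in the same rectangle that were not members, the median log2 difference between GK and Wistar islets was 1.56, against 0.39 over the piRNA probes elsewhere. Of those 186, 58.6%, 64.5% and 41.4% were well above background on GK 1, 2 and 3, where 29.3%, 35.9% and 26.4% of probes elsewhere were. On Wistar 1, 2 and 3 the shares were 24.7%, 26.9% and 28.5% in the area and 24.5%, 28.3% and 30.5% elsewhere. The excess of calls was thus seen on each GK array, while the shares on the Wistar arrays were close to those elsewhere. Among the 41 area probes detected on all 6 arrays the median difference was 0.79, against 0.14 over the 7680 such probes elsewhere.

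Signal level in the area showed the same split. The median processed signal of its 186 non-member probes was 20.6, 16.4 and 6.46 on the GK arrays, where it was 3.06, 7.80 and 2.39 elsewhere. On the Wistar arrays it was 2.70, 2.03 and 1.75 in the area and 3.41, 2.60 and 2.85 elsewhere. GK arrays were therefore brighter in the area than outside it, and Wistar arrays dimmer. The raw spot signals, before background subtraction, had medians of 54, 60.3 and 49 in the area on the GK arrays and 38, 46.5 and 40 elsewhere. The local background around the spots was 19, 24 and 19 in the area on the GK arrays and 19.5, 22 and 20 elsewhere. GK 2 and Wistar 3 shared position 3, though on different slides, and their area medians were 16.4 and 1.75. GK 1 and GK 3 were both at position 4, where no Wistar array was. For these GK arrays position and strain cannot be told apart.

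The raised zone did not have the same outline on each GK array. In columns 80 to 85 the median non-member signal on GK 1 was 6.44 in rows 221 to 240 and 33.4 in rows 241 to 260. On GK 3 it was 8.38 and 5.19 in the same rows, and 12 in the 20 rows before them. On GK 2 it was 17.8 and 14.8, and in rows 222 to 259 of columns 65 to 69 it was 19.6, where GK 1 and GK 3 had 4 and 1.62. Of the 18 edge members 16 lay in columns 83 to 85, where the medians were 15.2, 18.8 and 12.6 on the GK arrays and 2.67, 2.31 and 2.41 on the Wistar arrays.

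A few spots in the area belong to probes that were printed 10 times, which sets a spot against the same probe elsewhere. For bta-miR-425-3p, named for a bovine miRNA, the spot in row 254 and column 85 read 5.03, 20.2 and 11 on the GK arrays, against 2.60, 1.84 and 1.58 on the Wistar arrays. The median of its 9 other spots was 2.08, 12.2 and 1.86 on the GK arrays and 3.06, 2.09 and 1.79 on the Wistar arrays. The area spot thus read above its own copies on each GK array and below them on each Wistar array. On GK 1 and on every Wistar array, however, both the area spot and the copies were under the lowest called signal. For ppt-miR894, a plant miRNA, the area spot read 1.87, 6.28 and 2.47 on the GK arrays and 2.64, 2.00 and 1.60 on the Wistar arrays, all under the lowest called signals. Its copies had medians of 2.18, 2.68 and 1.89 on the GK arrays and 2.92, 2.02 and 1.86 on the Wistar arrays, so that the area spot was below them on GK 1 and above them on GK 2 and GK 3. For the bright probe XR_006686 the mean log2 ratios of the area spot to its copies were 0.025 on the GK arrays and -0.077 on the Wistar arrays. The 1 negative control spot in the area read 1.86, 2.25 and 1.67 on the GK arrays and 2.68, 1.88 and 1.62 on the Wistar arrays, so that the strains overlapped. How much of the edge members' signal goes with their place on the array was not tested.

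Each edge member still differed by more than the median of the non-member probes within 3 columns and rows of it. DQ605573 had a log2 difference of 4.36, and its 17 surrounding probes had a median of 1.50. DQ766349 had 4.03 against a surrounding median of 0.74. All its Wistar signals lay close to the lowest piRNA signals of Wistar 1, 2 and 3, which were 2.60, 1.82 and 1.58. The 4.03 takes such values at face value, whereas the bound of this probe was 3.25-fold. Over the 18 edge members the excess over the surroundings ran from 0.14 to 3.30 with a median of 1.47. Members were chosen for a large difference, so an excess over their neighbours follows in part from the choice.

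The other 44 members were spread over the array. On GK 1, 2 and 3 their median signals were 14.5, 21.0 and 12.1, against 9.37, 7.29 and 5.98 on Wistar 1, 2 and 3. For the 18 edge members the medians were 35.7, 21.4 and 12.8 on the GK arrays and 2.69, 3.62 and 4.03 on the Wistar arrays. The edge members were thus brighter on GK 1 and dimmer on every Wistar array, whereas the groups were alike on GK 2 and GK 3. Of the other 44 members, 37 met the weaker call on all 3 Wistar arrays, as did 8 of the 18 edge members. All 5 members that met it on at most 1 Wistar array lay in the edge area. The median log2 difference of the other 44 was 1.68, with a surrounding median of 0.41, and for the edge members these values were 3.22 and 1.54.

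DQ746950, in row 253 and column 35, had the largest bound outside the area. Its signals were 33.2, 44.0 and 10.2 on the GK arrays, against 5.66, 7.64 and 8.29 on the Wistar arrays. The GK arrays differed 4-fold among themselves, so that GK 3 was closer to the Wistar arrays than to GK 2. The bound of DQ746950 was 3.18-fold, and its 47 surrounding probes had a median log2 difference of 0.32.

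The spread over the GK arrays varied widely between members. On the scaled log2 level the widest range was that of DQ747025, at 2.75, with signals of 10.1, 51.1 and 9.48 on the GK arrays, against 4.94, 7.87 and 5.91 on the Wistar arrays. DQ762434, with the next widest scaled range of 2.30, had 19.2, 46.0 and 8.75 on the GK arrays, against 6.63, 1.98 and 2.87 on the Wistar arrays. In both, GK 2 was far above the other GK arrays. The narrowest scaled ranges were those of DQ618392, at 0.21, with 19, 12.4 and 12 on the GK arrays, against 2.62, 4.22 and 2.17 on the Wistar arrays, and of DQ752719, at 0.28, with 19.7, 18.1 and 15.7 on the GK arrays, against 14.1, 6.35 and 7.62 on the Wistar arrays. By processed signal GK 2 was the highest GK array for 38 members, GK 1 for 22 and GK 3 for 2, while GK 3 was the lowest for 46. The median SD between arrays was 0.57 in GK and 0.47 in Wistar islets for the members, against 0.37 and 0.34 for all tested piRNA probes.

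Some members were only just inside the rule. DQ762434 had the smallest margin on any GK array, at 1.08 times the lowest called signal on GK 3. It was followed by DQ747025 at 1.09 times on GK 1 and DQ761297 at 1.1 times on GK 3. DQ761297 had signals of 20.7, 16.1 and 8.86 on the GK arrays, against 8.24, 3.49 and 1.68 on the Wistar arrays. On the Wistar side, DQ733372 came closest to a call, with 11.8, 22.6 and 15.4 on the GK arrays, against 9.49, 12.1 and 10.5 on the Wistar arrays. Its groups overlapped. They overlapped as well for DQ738673, with 13.4, 20.3 and 25.2 on the GK arrays and 13.9, 9.11 and 9.86 on the Wistar arrays. For DQ728941 they did not, with 23.6, 23.4 and 18.6 on the GK arrays and 13.3, 11.3 and 2.08 on the Wistar arrays.

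Just outside the rule lay 196 piRNAs called on all GK arrays and 1 Wistar array, and 502 called on 2 GK arrays and no Wistar array. Of the 196, 134 were called on Wistar 3. Of the 502, GK 1 lacked the call for 255, GK 3 for 194 and GK 2 for 53. DQ756813 missed by a signal of 9.44 on Wistar 2, 1.02 times the lowest called there. Its signals were 61.6, 347 and 15.0 on the GK arrays and 9.52, 9.44 and 6.61 on the Wistar arrays, and it lies in the edge area, in row 231 and column 84. DQ767433 and DQ759827 missed by 1 Wistar array at 1.03 and 1.05 times the limit. DQ733671, with 13.5, 15.0 and 16.8 on the GK arrays and 5.87, 11.5 and 6.73 on the Wistar arrays, was not called on GK 2. DQ605197 likewise lacked the call on GK 2, and DQ624070 on GK 3.

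The 36 members outside the area that are not described one by one had bounds between 1.61-fold and 2.95-fold. They are DQ745960, DQ760012, DQ730555, DQ728744, DQ735558, DQ623468, DQ755418, DQ604170, DQ756190, DQ602305, DQ615650, DQ619666, DQ739539, DQ613030, DQ608971, DQ748810, DQ606021, DQ621787, DQ613036, DQ759187, DQ620183, DQ604924, DQ603201, DQ624218, DQ757586, DQ760615, DQ603577, DQ750347, DQ747094, DQ625746, DQ767408, DQ616897, DQ746963, DQ765245, DQ612405 and DQ762785. On the scaled level the groups still overlapped for DQ620183, DQ625746 and DQ733372.

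In the limma fit over all 11407 tested probes, 4 of the 62 members passed an adjusted p of 0.05, where 0.0351% of all tested probes passed as higher in GK. They were DQ605573, DQ766349, DQ739134 and DQ603001, all in the edge area. The rule used the same contrast, so nothing is read from this count. With the edge area left out, limma passed 0 of the 44 remaining members, 42 of which were under 0.05 by the unadjusted p, as were 60 of all 62. By the unadjusted p 8.00% of all tested probes were called higher in GK. Without GK 1, in which case strain and slide coincide, 5 members passed, as did 21 of all tested probes with these included. Without GK 2, GK 3 or any of the 3 Wistar arrays, 0 passed. With the slide as a block, which sets GK 1 alone against the Wistar arrays of its slide, 0 passed in limma and 38 had an unadjusted p under 0.05. Of these members, 61 could be compared within slide 1 alone, and there the median log2 difference was 1.88, as DQ766618 has no unflagged signal on GK 1.

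The authors' deposited table lists 128 piRNAs as higher in GK islets, 0.695% of the 18419 in their matrix. Of these 128, 30 are members, which is 23.4% of that list and 48.4% of the members. The table was made from these same arrays and lends no further weight. Among the members, the largest fold upward in the authors' deposited table is that of DQ605573, at 8.39, followed by DQ603001 at 7.19 and DQ739134 at 7.12. By place, 14 of the 18 edge members and 16 of the other 44 members are listed in it. The edge area holds 23 (18%) of the 128 piRNAs that the authors' deposited table gives as higher, and 0 of the 219 that it gives as lower. Of the 44 Wistar-only piRNAs, 0 lay in the area.

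By accession the members were spread like the probes of the whole array. Accessions beginning DQ6 made up 40.3% of the members and 38.2% of all piRNA probes, and those beginning DQ7 made up 59.7% and 61.8%. No 2 members had adjacent accession numbers, and the closest pair, DQ613030 and DQ613036, were 6 apart. Of the 73 non-member probes next to a member in accession number, 20.5% were detected on all 6 arrays, against 19.4% of all piRNA probes. Their median log2 difference was 0.42, close to the 0.39 over all piRNA probes. By place on the array, the 68 non-member probes touching an edge member had a median difference of 1.69, while the 298 touching another member had 0.41.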

How the data were processed

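Islet RNA of 3 GK and 3 Wistar samples was read on 1-colour Agilent arrays, 1 per sample. Per the file headers, the deposited scanner files came from Feature Extraction 11.0.1.1 (protocol GE1_1100_Jul11), and their processed signal is an intensity with background subtracted within each array and no scaling between arrays. No spot was saturated (0 on each array). The deposited matrix holds log2 values that the authors normalized by a method not given in the sources used here. The authors' deposited table gives for each listed piRNA an absolute fold between the strains and a p-value from an unpaired test, per its notes.

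Members were found by the calls on each spot. Outlier spots were left out of levels. The normexp alternative used the median spot and local background signals, with an offset of 50 and quantile normalization. The scaled log2 level subtracts each array's 75th percentile over probes detected on all 6 arrays. Probes well above background on at least 3 arrays were fitted with lmFit and eBayes of limma 3.58.1 (R 4.3.3), strain being the only term, and adjusted by Benjamini-Hochberg. The fit was also run on simulated data with independent noise and changes of known size. That simulation held no effect of slide, of place on the array or of a signal floor, so it does not bear on these. The number of arrays limits the precision. Slides were told apart by scan run and array position in the headers. The members, lists and alternatives were chosen with earlier results of these data known.

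Named members were the 10 with the largest bound, the 3 just inside the GK limit, the 3 closest to a Wistar call, and the 3 widest and 3 narrowest over the GK arrays on the scaled level. Named non-members were the 3 closest on each side. All further names were given after their values were seen. Arrays were paired by no source: same-numbered arrays deviated together with correlations of -0.026, 0.039 and 0.039.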

Additional observations from a re-analysis of the deposited data

How the results depend on the processing

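The number of GK-only piRNAs, 62, depends on the call. It was 292 with the weaker positive-and-significant call, a largely different set, as only 2 of the 62 failed that call on every Wistar array. It was 7 when each GK signal had to reach 2 times the lowest called signal. In the authors' deposited matrix it was 112 (9 of the 62 among them), taking the lowest value of an array as not detected. Leaving out each array in turn gave 90 (Wistar 1) to 317 (GK 1), GK 2 giving 115, GK 3 256, Wistar 2 96 and Wistar 3 196, as a rule over 5 arrays is easier to meet. With outlier spots taken as not measured it was 61, and outside the edge area, an alternative chosen after seeing the data, 44.

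The median log2 difference of the members was 2.02, 0.24 with normexp, whose offset of 50 lowers the differences of dim probes by construction, and 1.21 in the authors' deposited matrix. It moved by less than the spread between arrays in the other settings. Among these it was 1.49 with quantile normalization, 1.54 with the percentile over all probes and 1.63 with no scaling. When each array was left out it was 1.75 to 2.17.

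Of the 62 members, 4 passed the adjusted threshold in limma. The number was 9 with the percentile over all probes and 2 in the authors' deposited matrix. It was 0 with quantile normalization (45 at an unadjusted p under 0.05), normexp (27), the slide as a block (38), slide 1 alone (36), no filter on dim probes (59), the replicate block (61) and outside the edge area (42). Leaving out each array gave 0 to 5. Probes detected on all 6 arrays include no member, so that filter gives no value. The replicate numbers share only a number.

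Of the probes touching a member 111 were tested, with a median log2 difference of 0.31. It was -0.17 with the percentile over all probes and -0.073 with no scaling, where all tested piRNA probes had -0.31 and -0.22, so it stayed above them. The 18 named members kept a positive difference in all 269 values, of which 54 moved by more than the spread, 18 of them under normexp. They were chosen for GK calls and no Wistar call on these same arrays, so the positive sign follows in large part from the choice. Of all 62 members 2, neither of them among the 18, had a difference below 0 under normexp. The causes were not tested. Most members lay near the lowest called signal, and how far this limits the values was not tested.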
